A study of Homo sapiens with 6 samples.

Results

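The 10 genes described here encode core factors of nucleotide excision repair, *XPC*, *ERCC6*, *ERCC8*, *UVSSA*, *ERCC3*, *ERCC2*, *XPA*, *ERCC5*, *ERCC1* and *ERCC4*. They were listed by name and matched by gene name among 64486 genes of GENCODE release 44 mapped to GRCh37, where each of the 10 had 1 record. A peak was assigned to a gene when it overlapped the gene record or 2 kb on either side. By this rule the genes held 12 of 10231 R-loop peaks of untreated cells and 10 of 11085 peaks of treated cells. R-loops were mapped by spKAS-seq, in which N3-kethoxal, a reagent that reacts with guanine in single-stranded DNA, marks the displaced strand beside an RNA-DNA hybrid so that it can be captured and sequenced with its strand kept. The cells were wild-type HEK293T, an established line from human embryonic kidney. They were either left without the nucleoside or kept for 3 h in medium with 10 μM N2-heptynyl-dG, a deoxyguanosine that carries an alkynyl chain on the minor-groove side, and both groups then received 5 mM N3-kethoxal for 10 min. The labels list 2 untreated samples, 2 treated samples and 2 inputs, and 1 peak list per condition was analysed. Positions of peaks hold no expression values, so the identity of the cells was not checked against marker genes here.

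Nucleotide excision repair removes bulky adducts, including those on the N2 of guanine, by cutting out a short stretch of the damaged strand. Damage is found along separate routes. XPC senses distorted DNA anywhere in the genome, whereas in transcribed strands the stalled RNA polymerase II recruits the proteins of *ERCC6* (CSB), *ERCC8* (CSA) and *UVSSA*. Both routes lead to transcription factor IIH, whose helicases XPB (*ERCC3*) and XPD (*ERCC2*) open the DNA, to verification by XPA, and to incision by XPG (*ERCC5*) on one side of the lesion and by the ERCC1-XPF pair (*ERCC1*, *ERCC4*) on the other. XPG and XPF can also cut R-loops, for which they are known outside of repair.

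Each line of a list gives a chromosome, a start, an end and a strand, and no height, so that a peak is either present or absent and has no depth. Since each condition has a single list, replicate error cannot be given for any count or width, and differences between the lists are described without a test. A peak present in only 1 list may lie close to the limit of calling in the other. The strand is given as in the lists, and the sources used here do not say whether it names the strand that reacted with N3-kethoxal or the other one. If it names the other, G and C trade places in every value on the peak strand below, and peaks on the strand of a gene become peaks on its opposite strand. RNA was not analysed here.

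R-loop peaks were found at 8 of the 10 genes in untreated cells and at the same 8 in treated cells. Among 20176 protein-coding genes, the same windows held an untreated peak in 41.7%, a treated peak in 43.8% and a peak of each list in 36.3%. *ERCC6* and *UVSSA* had a peak in neither list. The 10 gene records are 21082 bp (*ERCC2*) to 85371 bp (*ERCC6*) long, with a median of 35176 bp against 27194 bp over protein-coding genes. Of the 7608 protein-coding genes of 20 to 90 kb, 41.4% had a peak in each list and 44.4% had none in either. The 80.0% found for the listed genes in each list is a description of 10 genes and was not tested.

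**Figure D1:**
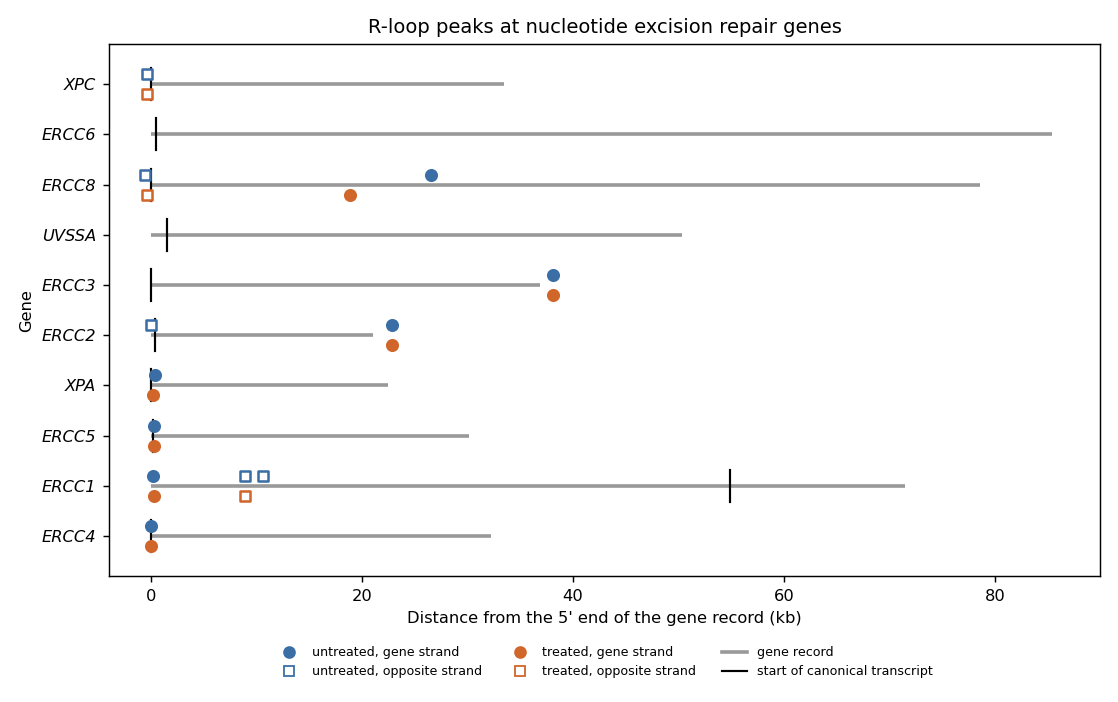
Each horizontal line is a gene record drawn from its 5′ end in kb, the black tick is the start of the canonical transcript, and symbols mark the midpoints of peaks (untreated above, treated below; filled on the strand of the gene, open on the opposite strand). Peaks gather at the 5′ ends, *ERCC2* and *ERCC3* have peaks past their 3′ ends, *ERCC8* has different internal peaks in the lists, and *ERCC6* and *UVSSA* have none.

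*XPC*, on the minus strand of chromosome 3 (14186647 to 14220121), encodes the damage sensor of global repair. Both lists hold the same plus-strand peak of 500 bp, chr3:14220251-14220750, at -649 to -150 bp from the canonical start of *XPC*, so that it lies upstream of the gene and on the opposite strand. The start of *LSM3*, which encodes a subunit of a complex that binds U6 small nuclear RNA, lies 216 bp from that of *XPC* and faces away from it. On *LSM3* the peak runs from -66 to 433 bp, mostly in the intron next to the start (369 bp). The peak at *XPC* is therefore a peak over the start of its neighbor, on the neighbor's strand. Its GC content was 46.2% and it held 3 runs of GGG. A stretch from chr3:14220361-14220560 on the plus strand is shown because it runs from the first coding bases of *LSM3* into the intron, and it holds no run of GGG. Here and below, the stretch is that part of a peak, at most 200 bases long and outside annotated untranslated sequence, with the most bases in runs of 3 or more G on the peak strand, and capitals mark such runs.
XPC and LSM3 peak, plus strand: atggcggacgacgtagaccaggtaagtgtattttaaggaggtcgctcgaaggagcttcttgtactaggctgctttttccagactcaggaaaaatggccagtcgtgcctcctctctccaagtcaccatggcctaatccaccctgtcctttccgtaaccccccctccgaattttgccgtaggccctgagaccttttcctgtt

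*ERCC8*, on the minus strand of chromosome 5 (60162281 to 60240900), encodes the substrate receptor of the ubiquitin ligase of transcription-coupled repair. It shares its 5′ end with *NDUFAF2*, an assembly factor of respiratory complex I that starts 135 bp away in the other direction. A plus-strand peak lies on the *NDUFAF2* side in both lists, 750 bp wide in untreated cells (chr5:60241075-60241824) and 500 bp wide in treated cells (chr5:60241075-60241574). The peaks share their border near the starts, and the treated peak ends 250 bp earlier inside *NDUFAF2*. As at *XPC*, the peak is on the strand of the neighbor.

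Inside *ERCC8*, the lists hold different peaks on the strand of the gene. The untreated list has a peak of 1000 bp, chr5:60213825-60214824, located 26073 to 27072 bp from the canonical start, with 876 bp in introns and 124 bp in coding sequence. The peak covers 2 annotated starts of shorter *ERCC8* transcripts and also overlaps the antisense RNA gene *ERCC8-AS1*, whose strand it does not share. The treated list has a peak of 500 bp within an intron instead, chr5:60221825-60222324, at 18576 to 19075 bp from the 5′ end of the gene record. The gap between them is 7000 bp, and neither overlaps a peak of the other list. Both are poor in GC for R-loop peaks, with 38.6% each, and only 1.94% of untreated and 1.24% of treated peaks had a lower GC content. Of the words of 31 bases under the treated peak, 21.9% occur more than 1 time in the genome, against 0.0% under the untreated peak. A stretch of the untreated peak, chr5:60214625-60214824 on the minus strand, is shown because this peak inside *ERCC8* was called without the nucleoside only.
ERCC8, untreated only: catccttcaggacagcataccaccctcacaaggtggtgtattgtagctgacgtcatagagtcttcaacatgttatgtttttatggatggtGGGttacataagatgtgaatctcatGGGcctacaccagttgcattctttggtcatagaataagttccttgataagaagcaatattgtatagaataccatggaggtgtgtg

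The remaining recognition genes had no peaks. *ERCC6*, on the minus strand of chromosome 10 (50662214 to 50747584), encodes the ATPase that remodels chromatin and polymerase at stalled transcription. The nearest untreated peak is 193564 bp and the nearest treated peak 472564 bp from its record. *UVSSA*, on the plus strand of chromosome 4 (1339479 to 1389777), encodes the factor that brings transcription factor IIH to the stalled polymerase. Its nearest peaks are 55784 bp away in the untreated and 56034 bp away in the treated list. Among the members that recognize damage in transcribed strands, *ERCC8* was thus the exception with peaks.

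*ERCC3* and *ERCC2*, the helicase genes of transcription factor IIH, each had a peak past the 3′ end that was the same in both lists. *ERCC3* lies on the minus strand of chromosome 2 (128014866 to 128051742), and its peak of 1250 bp, chr2:128013051-128014300, is 566 to 1815 bp downstream of the canonical 3′ end on the strand of the gene. No other annotated gene overlaps this peak. *ERCC2* lies on the minus strand of chromosome 19 (45853095 to 45874176). Its peak of 1250 bp, chr19:45850682-45851931, is 1164 to 2413 bp past the canonical 3′ end, again on the strand of the gene. It lies inside *KLC3*, which encodes a kinesin light chain and is transcribed in the opposite direction, with 318 bp in coding sequence and 932 bp in introns of that gene. The peaks share width and strand but not base composition. The *ERCC2* peak had a GC content of 63.8% and 35 runs of GGG, and the *ERCC3* peak 50.5% and 11 runs. In both, C exceeded G on the peak strand, with a GC skew (G minus C over their sum) of -0.107 at *ERCC2* and -0.122 at *ERCC3*. Of the words of 31 bases, 0.0% under the *ERCC2* peak and 20.2% under the *ERCC3* peak recur in the genome. Stretches of both peaks on the minus strand, chr19:45851728-45851927 and chr2:128013436-128013635, show this contrast in G runs.
ERCC2, past the 3′ end: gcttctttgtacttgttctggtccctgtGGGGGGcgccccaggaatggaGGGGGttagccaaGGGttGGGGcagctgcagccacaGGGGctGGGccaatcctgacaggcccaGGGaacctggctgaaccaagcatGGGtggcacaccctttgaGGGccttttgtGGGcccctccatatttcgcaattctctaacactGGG
ERCC3, past the 3′ end: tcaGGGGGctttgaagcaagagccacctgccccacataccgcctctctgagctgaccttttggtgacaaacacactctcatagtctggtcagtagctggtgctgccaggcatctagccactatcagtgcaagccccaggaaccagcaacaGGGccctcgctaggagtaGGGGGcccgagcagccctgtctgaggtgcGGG

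At the 5′ ends, *ERCC3* had no peak in either list, and *ERCC2* had a peak only in untreated cells. This *ERCC2* peak, chr19:45873932-45874431, is 500 bp wide, on the plus strand, at -600 to -101 bp from the canonical start, and contains the 5′ end of the gene record. The treated list has no peak within 22000 bp of it, and every other member with a start peak in untreated cells also had one in treated cells. With a GC skew of 0.112, the peak was above 87.9% of untreated peaks in the excess of G. A share of 20.6% of its words of 31 bases recurs in the genome.

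*XPA*, on the minus strand of chromosome 9 (100437191 to 100459622), encodes the scaffold that verifies the lesion. Its peaks are on the strand of the gene and differ by 1 border. The untreated peak, chr9:100459027-100459526, is 500 bp wide and begins 96 bp inside the gene, with 124 bp in coding sequence and 376 bp in the intron. The treated peak, chr9:100459027-100459776, is 750 bp wide, and the added 250 bp reach across the start to -154 bp. *XPA* was the only member with a wider peak in treated cells. These peaks were the richest in GC among the members, 68.8% in untreated and 70.0% in treated cells. The stretch chr9:100459312-100459511 on the minus strand, common to both peaks, lies in coding sequence and the adjacent intron.
XPA, both lists: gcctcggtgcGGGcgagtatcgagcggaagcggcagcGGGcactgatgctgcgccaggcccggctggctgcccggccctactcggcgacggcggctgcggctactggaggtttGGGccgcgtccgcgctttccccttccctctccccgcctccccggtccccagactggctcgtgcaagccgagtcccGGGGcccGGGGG

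Among the incision genes, *ERCC5* and *ERCC4* had peaks on their own strand across their own starts in both lists. *ERCC5* encodes the nuclease that cuts 3′ of the lesion and lies on the plus strand of chromosome 13 (103498181 to 103528345). Its untreated peak, chr13:103497926-103498925, is 1000 bp wide and runs from -456 to 543 bp around the canonical start. The treated peak, chr13:103498176-103498675, is 500 bp wide and runs from -206 to 293 bp, so that 250 bp were lost at each end with the midpoint kept. The peak also lies in an intron of the readthrough gene *BIVM-ERCC5*, which has the same strand. Its GC content was 59.1% in untreated and 62.4% in treated cells, with 26 runs of GGG in the wider and 14 in the narrower peak.

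*ERCC4* encodes the catalytic subunit of the nuclease that cuts 5′ of the lesion and lies on the plus strand of chromosome 16 (14013995 to 14046205). Both lists hold the same peak of 500 bp, chr16:14013751-14014250, from -260 to 239 bp around the canonical start. It covers 207 bp of coding sequence, and 7 annotated *ERCC4* starts lie within it. Its GC content of 66.4% went with only 4 runs of GGG. The sequence upstream of the start, chr16:14013751-14013950 on the plus strand, is shown because a short unit recurs in it, and it holds no run of GGG. The letters TCGGCT, chosen after this sequence was seen, occur 13 times in the peak on the plus strand and 0 times on the minus strand. Searched on both strands, they occur at least 1 time in 24.4% of untreated and 25.0% of treated peaks of 500 bp. In each list, 2 peaks of that width, this one included, hold 13 or more, and the highest count was 18. No word of 31 bases under the *ERCC4* peak recurs in the genome.
ERCC4, both lists: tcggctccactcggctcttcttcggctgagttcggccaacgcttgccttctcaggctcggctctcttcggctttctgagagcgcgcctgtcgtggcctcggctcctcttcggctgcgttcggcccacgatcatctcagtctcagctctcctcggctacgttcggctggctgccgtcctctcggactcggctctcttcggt

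*ERCC1*, which encodes the noncatalytic partner of XPF, lies on the minus strand of chromosome 19, and its record (45910592 to 45982086) is much longer than its canonical transcript. The canonical start is at 45927175, and no peak lies within 44007 bp of it in the untreated or 45757 bp in the treated list. The record extends past *FOSB*, an immediate early transcription factor gene on the plus strand (45971253 to 45978437), because 1 of 18 annotated *ERCC1* transcripts starts beyond it. RefSeq's gene table for GRCh38.p14 lists *ERCC1* and *FOSB* as records that do not overlap. All peaks assigned to *ERCC1* lie in this extension.

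Peaks were found there at *FOSB* and at the far end of the record. On the *FOSB* strand, the untreated list has 2 peaks of 500 bp, and the treated list has 1. The peak from chr19:45972932-45973431 lies in an intron of *FOSB* and was the same in both lists. The peak over the *FOSB* start, chr19:45971182-45971681, at -72 to 427 bp, was found in untreated cells only, 1250 bp from the nearest treated peak. The sequence just upstream of the *FOSB* start, chr19:45971182-45971252 on the plus strand, is shown since this start peak was called without the nucleoside only. The sequence holds 6 runs of GGG in 71 bases. On the *ERCC1* strand, a peak spans the start of the long transcript, 1000 bp wide in untreated cells (chr19:45981432-45982431) and 750 bp wide in treated cells (chr19:45981432-45982181), with 250 bp lost upstream. In the order of genes in RefSeq's table, the selenocysteine tRNA gene *TRU-TCA1-1* follows *FOSB*. Its position in GRCh37 was not available here, so whether the peak at the record end covers it was not determined. A stretch of the peak, chr19:45981794-45981993 on the minus strand, is given for comparison.
FOSB start, untreated only: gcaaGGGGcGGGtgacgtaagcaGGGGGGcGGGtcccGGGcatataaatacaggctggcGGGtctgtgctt
ERCC1 record end, both lists: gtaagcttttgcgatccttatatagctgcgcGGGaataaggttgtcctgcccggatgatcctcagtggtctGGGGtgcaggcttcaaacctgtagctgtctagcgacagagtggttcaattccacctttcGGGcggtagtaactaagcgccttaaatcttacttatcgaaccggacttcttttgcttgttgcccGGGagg

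**Figure D2:**
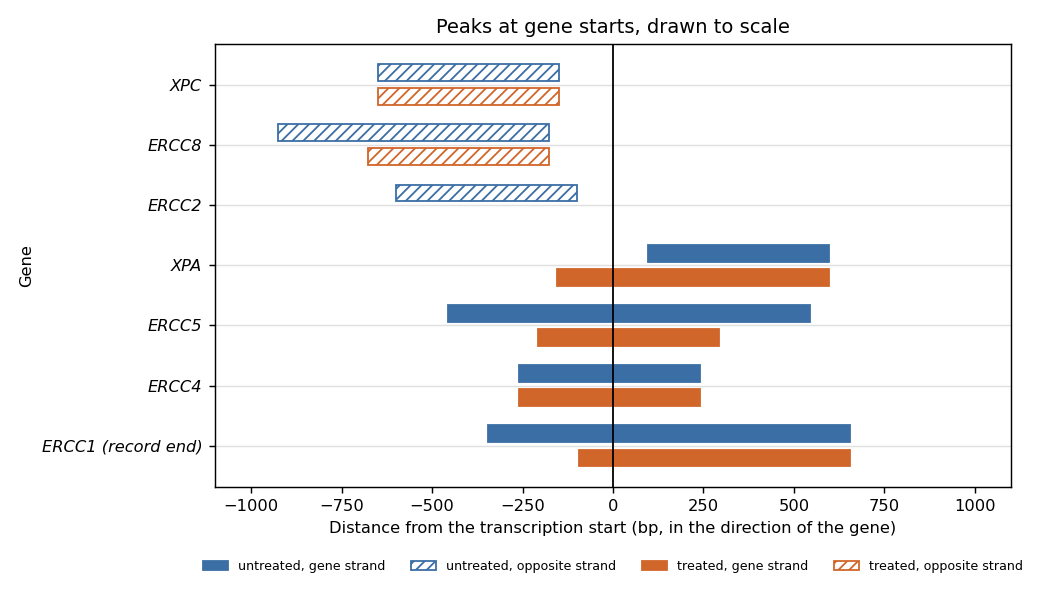
Bars show peaks near gene starts to scale, in bp from the canonical start in the direction of the gene (for *ERCC1*, from the 5′ end of its record), with solid bars on the strand of the gene and hatched bars on the opposite strand. Opposite-strand peaks at *XPC*, *ERCC8* and *ERCC2* lie wholly upstream, whereas gene-strand peaks at *XPA*, *ERCC5*, *ERCC4* and *ERCC1* cover or follow the start, except that the untreated *XPA* peak begins 96 bp past it.

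Most member peaks were common to the lists. Of the 12 peaks in untreated cells, 9 met a treated peak, against 74.8% of the whole untreated list, and of the 10 treated peaks, 9 overlapped an untreated peak, against 69.5% of the treated list. The unmatched peaks were those of untreated cells at *ERCC2*, *FOSB* and inside *ERCC8*, and that of treated cells inside *ERCC8*. These 9 pairs were each on the same strand, and 5 of them had identical borders, against 44.1% of 7314 pairs over the whole lists. The identical pairs were those at *XPC*, *ERCC3*, *ERCC4*, the 3′ side of *ERCC2* and the intron of *FOSB*. In treated cells 3 peaks were narrower (*ERCC8*, *ERCC5* and *ERCC1*) and 1 was wider (*XPA*), while over the whole lists 25.1% of pairs were narrower and 25.2% wider. Each border that moved did so by 250 bp, and the widths of the member peaks are multiples of this step. Added up, the member peaks covered 9250 bp without and 7000 bp with the nucleoside. These totals rest on 12 and 10 peaks, and no total over the whole lists is given here to set beside them. Among the untreated peaks, 6 were 500 bp wide, 1 was 750 bp, 3 were 1000 bp and 2 were 1250 bp wide. Among the treated peaks, 6 were 500 bp, 2 were 750 bp and 2 were 1250 bp wide.

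A peak at an annotated start, from 1000 bp upstream to 100 bp downstream of any transcript of the gene, was present at 7 members in untreated and at 6 in treated cells, with *ERCC2* making the difference. Over protein-coding genes these shares were 28.1% and 30.8%. The count takes in peaks of neighbors, since *XPC* and *ERCC8* had start peaks on the strand of *LSM3* and *NDUFAF2*. With peaks on the strand of the gene alone, 5 members had a start peak in untreated cells (*ERCC8*, *XPA*, *ERCC5*, *ERCC1* and *ERCC4*) and 4 in treated cells, without *ERCC8*, whose untreated peak lies at the starts of shorter transcripts inside the gene. The shares of 28.1% and 30.8% count peaks on either strand, and no share by strand is given here to set beside these counts. At the canonical start and on the strand of the gene, the members with peaks in both lists were *XPA*, *ERCC5* and *ERCC4*. The untreated *XPA* peak meets this window only by its edge, since it begins 96 bp past the start. The *ERCC1* start peak lies at its record end, at the start of 1 of 18 transcripts. By canonical transcripts alone, *ERCC1* had no start peak in either list.

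Of the member peaks, 7 of 12 in untreated and 7 of 10 in treated cells were on the strand of the gene, against 69.4% and 68.7% of the peaks in windows of protein-coding genes. The 5 untreated peaks on the opposite strand were those at *LSM3*, *NDUFAF2*, the *ERCC2* start and *FOSB*, the last with 2 peaks. The 3 treated ones were at *LSM3*, *NDUFAF2* and *FOSB*. Apart from the peak at *ERCC2*, every peak opposite to a member was on the strand of another coding gene that it overlapped.

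The base composition of the member peaks varied as widely as that of R-loop peaks in general. Their median GC content was 56.5% in untreated cells, against 56.2% for the whole list, and 60.3% in treated cells, against 57.6%. It ranged from 38.6% inside *ERCC8* to 70.0% at *XPA*. The median GC skew on the peak strand was -0.0500 in untreated and -0.0509 in treated cells, against 0.0 and -0.0133 for the whole lists, and G exceeded C in 5 of 12 and 4 of 10 member peaks, against 49.2% and 43.9%. The highest skew was that of the untreated-only *ERCC2* peak, 0.112, and the lowest that of the *FOSB* intron peak, -0.161. Among peaks of 500 bp, runs of GGG numbered from 3 at *XPC* to 16 at the *FOSB* start, and the list medians over all widths were 18.0 per kb in untreated and 18.7 per kb in treated cells. A G-quadruplex motif, taken as 4 runs of at least GGG joined by 1 to 7 bases, was present on the peak strand in 3 of 12 untreated member peaks (*ERCC8* at *NDUFAF2*, *ERCC2* past the 3′ end and *ERCC5*) and in 1 of 10 treated ones (*ERCC2* past the 3′ end). Over the whole lists the motif was on the peak strand in 18.2% and 19.3% of peaks, and on the other strand in 23.6% and 26.6%, where 2 of 12 untreated and 2 of 10 treated member peaks held it. At *ERCC5* and at *NDUFAF2* the motif was absent from the narrower treated peak.

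**Figure D3:**
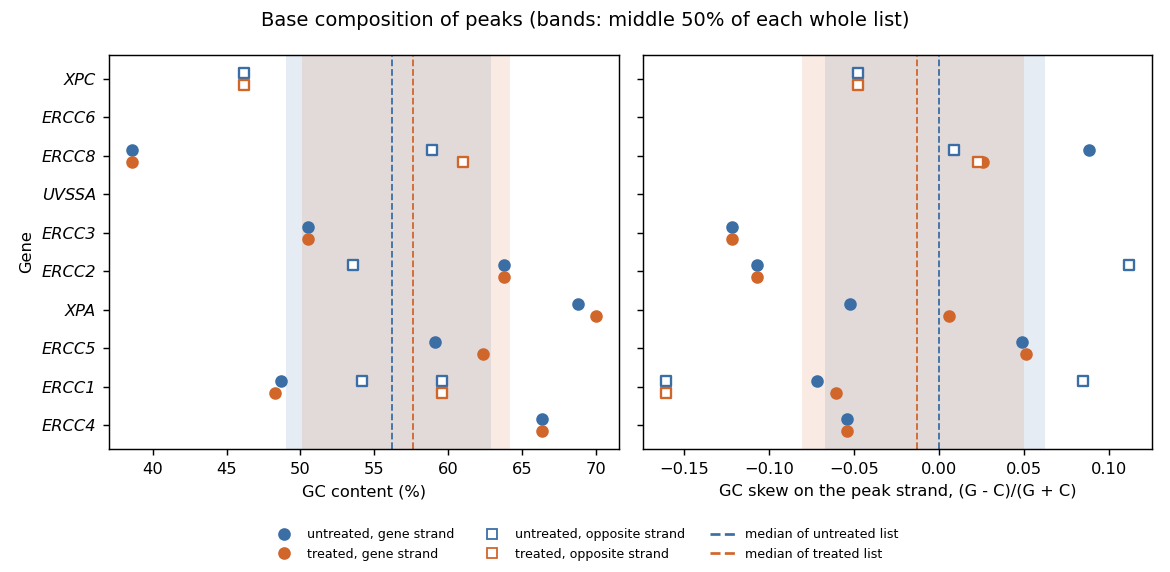
GC content in percent (left) and GC skew (right) of each member peak, by gene, with filled symbols on the strand of the gene and open symbols on the opposite strand. Dashed lines are the medians and bands the middle 50% of all peaks of each list. The internal *ERCC8* peaks, at 38.6%, and the *XPA* peaks, at 68.8% and 70.0%, lie outside the bands of GC content on opposite sides.

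The starts of the genes without peaks were not poor in GC or CpG. In the region of 500 bp on either side of the canonical start, GC content was 61.3% at *ERCC6* and 73.6% at *UVSSA*, with 77 and 119 CpG. At the other members it ranged from 55.9% (*ERCC8*) to 62.9% (*ERCC2*), with 56 to 86 CpG. Over protein-coding genes, the median was 62.6% with 75 CpG for genes with a treated start peak and 60.2% with 57 CpG for genes with a start peak in neither list. *UVSSA* thus had the most GC-rich start of the 10 and no peak. GC skew at the start, on the strand of the gene, was highest at *ERCC1* (0.167), where no peak lies at the canonical start, and at *XPC* (0.112), and was -0.0643 at *ERCC8* and -0.0435 at *XPA*.

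Another 33 genes of the pathway were examined by the same windows. They encode the damage-binding and ubiquitin ligase proteins, the remaining subunits of transcription factor IIH, replication protein A, and the polymerases, clamp and ligases that refill the gap. Of these, 24 had a peak in untreated cells (72.7%) and 24 in treated cells (72.7%), with 23 in common. Over protein-coding genes the shares were 41.7% and 43.8%. No peak was found in either list at 8 genes, named after their values were seen, *GTF2H5*, *RPA1*, *RFC1*, *LIG1*, *XRCC1*, *XAB2*, *USP7* and *MMS19*. A start peak was present at 20 genes in each list (60.6%), against 28.1% and 30.8% of protein-coding genes. These shares were not tested, and no share of protein-coding genes matched in length or expression is given for the 33 genes. In all, 33 of their 44 untreated peaks and 32 of their 38 treated peaks met a peak of the other list. Over the whole lists, 74.8% of untreated and 69.5% of treated peaks did so. On the strand of the gene were 36 of the untreated and 28 of the treated peaks. In windows of protein-coding genes the shares were 69.4% and 68.7%.

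*CETN2*, which encodes the centrin that binds XPC, had a peak in treated cells only, 500 bp wide on the plus strand of chromosome X (151999375 to 151999874), upstream of its start and opposite to its strand. *GTF2H2*, the p44 subunit of transcription factor IIH, had peaks in untreated cells only, of 1000 bp and of 500 bp, the latter across its start on the strand of the gene (70363075 to 70363574 on chromosome 5). Of the words of 31 bases under each of these peaks, 100.0% occur more than 1 time in the genome, so reads there cannot be assigned to *GTF2H2* with certainty, and the part of this in the difference between the lists was not tested. The widest peaks of the pathway were at *HMGN1*, a nucleosome-binding protein, and *PCNA*, the sliding clamp of DNA synthesis, each of 1750 bp. The *HMGN1* peak (chromosome 21, 40711993 to 40713742) was the same in both lists. That of *PCNA* was a treated peak (chromosome 20, 5093251 to 5095000) that spans a pair of untreated peaks of 500 and 1000 bp and the gap between them. Peaks of 1500 bp were also found at *ELOF1*, an elongation factor of transcription-coupled repair, in untreated cells and at *RBX1*, a subunit of the ubiquitin ligase, in both lists.

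**Figure D4:**
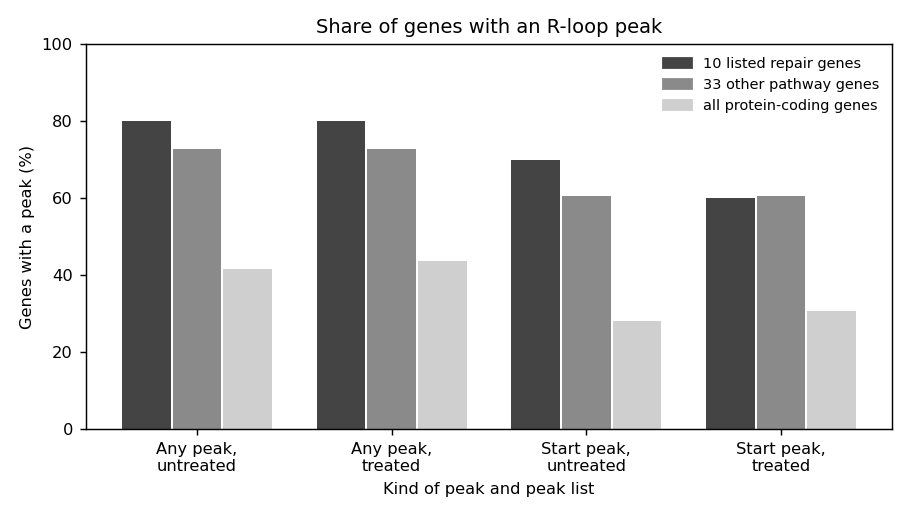
Bars give the percent of genes with any peak in the gene record or 2 kb on either side, and with a peak at an annotated start, in each list, for the 10 listed genes, the 33 other pathway genes and all protein-coding genes. Both sets of repair genes lie above the coding genes in all 4 groups of bars, and there is no error bar because each condition has 1 list. The differences were not tested, and the coding genes were not matched to either set by length or expression.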

How the data were processed

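spKAS-seq reads of HEK293T cells were trimmed by the authors with Trim Galore, aligned to hg19 with Bowtie2 and cleared of duplicates with Picard, and R-loops were defined by an earlier procedure from 2 replicates. Versions are not given in the sources used here. The deposited lists have 4 columns (chromosome, start, end, strand) of another kind than a signal, fold or p-value, so depth is unknown and no interval is given. There is 1 list per condition, attached to replicate 1. The other samples were not analysed here. No peak exceeded its chromosome in GRCh37, the reference used, which shares its coordinates with hg19.

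Starts were converted to count from 1. Gene records, canonical transcripts and coding sequence came from GENCODE release 44 mapped to GRCh37. Peaks overlapping by at least 1 bp counted as shared, and borders were compared for pairs on 1 strand that met no other peak. Base composition left out peaks with over 50% unresolved bases. Recurring words of 31 bases were counted on both strands of the genome. Members and lists were chosen with earlier results of these data known. All members were named, with the pathway genes that had peaks in 1 list only or the widest peaks, and other genes only where they met a member peak. Some items that these rules would include are not reported here. No statistical test between the lists was made. The scripts that count overlaps and windows were checked on simulated data. Python 3.11.15, numpy 2.4.6, pandas 2.3.3 and pysam 0.24.0 were used.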

Additional observations from a re-analysis of the deposited data

How the results depend on the processing

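No paired analysis was possible because only 1 list stands for each condition, so same-numbered samples could not be set against each other. For 11 results, 47 values were recomputed under other settings, and 37 stayed within 1.5 times the first value. Without the flank of 2 kb, members with a peak were 5 in the treated list and 5 in both lists, and shared member peaks were 5 in each list, since the shared peaks at *XPC*, *ERCC3*, the 3′ side of *ERCC2* and the *NDUFAF2* side of *ERCC8* lie outside the records. With peaks of at least 750 bp, members with a peak were 5 in untreated cells, 4 in treated cells and 3 in both, and the other pathway genes with a treated peak were 15. Fewer peaks enter by construction. No share of protein-coding genes is given for the settings without the flank or with wide peaks, so these counts cannot be set against it. With a 90% reciprocal overlap, 5 member peaks were shared in each list, those with identical borders. With the window of the canonical transcript in place of the gene record, an alternative chosen after seeing the data, *ERCC1* had no peak and 7 members had a peak in each list, against 39.8% and 42.1% of 19894 protein-coding genes.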
